A study of Homo sapiens with 5 samples.

Results

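The genes described here are 56 genes of the primary cilium and of the Hedgehog pathway that signals through it. They were chosen by symbol, matched through GENCODE to the 64252 gene identifiers of the deposited table, and all 56 were found. They fall into 7 groups, with 12 genes of intraflagellar transport complex B (IFT-B), 6 of complex A (IFT-A), 7 of the IFT motors, 8 of the BBSome, 13 of the transition zone, 5 of the basal body and 5 of the Hedgehog pathway. RNA had been collected from wild-type RPE-1 cells, a human line of retinal pigment epithelium immortalized with telomerase, 48 hr after transfection. The cells received an on-target control siRNA (siCtrl, 3 libraries) or pooled siRNAs against FAM53C (siFAM53C, 2 libraries), in each case at 5 µM by the labels and with the same lipid reagent. All cells grew in medium with serum, and whether they carried cilia was not measured in these libraries. All libraries came from 1 cell line and from 1 pool of siRNAs, and the labels do not say that they were separate cultures, so the p-values below measure only the spread between these libraries, which may be technical. In total, genes received 24099968, 19694561 and 19260124 counts in siCtrl and 25615415 and 22993116 in siFAM53C.

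The primary cilium is a single, non-motile antenna that grows from the older centriole of a resting cell and is taken down again before mitosis. IFT-B and kinesin-2 carry cargo towards its tip, IFT-A and dynein-2 carry cargo back, the BBSome loads membrane proteins onto these trains, and the transition zone gates the base. In vertebrates Hedgehog signals pass through the cilium: ligand binding to PTCH1 releases SMO, and the GLI factors then leave their repressor form and switch on targets that include GLI1, PTCH1 and HHIP. RPE-1 is widely used for work on cilia, which most of its cells form when serum is withdrawn.

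Marker genes were read first, as a check of the labels. Of 10 retinal pigment epithelium markers, RPE65 and TRPM1 had no count in any of the 5 libraries, and TYR stayed at or below 0.0849 CPM (the number of counts that a library of fixed size would hold, with TMM factors). MITF and OTX2, factors of this lineage, were present, with 34, 37.3 and 48.8 CPM of MITF in siCtrl and 34.8 and 44.7 in siFAM53C. Of the others, RLBP1 and TYRP1 were at or below 0.0849 CPM, BEST1 lay between 0.17 and 0.786 CPM, PMEL between 0.552 and 1.23 CPM and SERPINF1 between 1.05 and 2.99 CPM. The 5 markers with enough counts had log2 fold changes from -1.19 (BEST1) to 0.50 (PMEL), none was called by edgeR (0 also at an unadjusted p under 0.05), and OTX2 was below every control in both knockdown libraries, with 17.1, 14.7 and 16.2 CPM in siCtrl and 13.5 and 14.4 CPM in siFAM53C. Of 12 genes of motile cilia, which other epithelia use to move fluid, 11 were matched and 6 of those had no count in any library. The summed level of those matched was 14.6, 16.6 and 16.2 CPM in siCtrl and 16.7 and 19.5 in siFAM53C, and CFAP298 held most of it in every library. The 5 with enough counts were all above 0, where 51.8% of all genes tested were. Their median log2 fold change was 0.35 and the highest 1.32. Their levels were low, however, with a median of 0.18 and a minimum of 0.012 CPM per kilobase of exon in siCtrl. In 2 of these 5 both knockdown libraries were above every control (40%, beside 16.7% of all genes). None of the 5 was called by edgeR (0 also at an unadjusted p under 0.05). Of 4 markers of simple epithelial keratins and mesenchymal filaments, none was called by edgeR, and the log2 fold changes ran from -0.14 to 0.32. At an unadjusted p under 0.05, 1 of these 4 was higher (6.61% of all genes). With a term for the library split, described below, 1 was called higher (6.76% of all genes). Of 4 leukocyte and endothelial markers, CDH5 had no count and CD68 was at or below 0.17 CPM. PTPRC was at or below 0.212 CPM but for 1.05 CPM in siCtrl replicate 3. PECAM1, which endothelial cells carry, was detected at 0.849, 0.837 and 0.210 CPM in siCtrl and 0.302 and 0.255 CPM in siFAM53C (log2 fold change -1.17, edgeR adjusted p = 0.548), with overlap. The summed level of these 4 was 1.15, 0.994 and 1.36 CPM in siCtrl and 0.529 and 0.509 CPM in siFAM53C, and its part in the results below was not tested.

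The targeted gene, FAM53C, was lower in both knockdown libraries. It stood at 60.9, 59.7 and 57.6 CPM in siCtrl and at 14.2 and 22.3 CPM in siFAM53C, so the conditions did not overlap. Its log2 fold change, -1.71 (SE 0.19), passed the quasi-likelihood test of edgeR, fitted over all genes with p-values adjusted by Benjamini and Hochberg (edgeR, adjusted p = 0.00363), and so matched the labels.

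Most of the cilium and Hedgehog genes changed little after FAM53C knockdown. All 56 had enough counts to be tested, and at an edgeR adjusted p under 0.05 TMEM231 and CCP110 fell and 0 genes rose. That is 2 of 56, or 3.57% lower, where 3.47% of all 15341 genes tested were lower and 0.489% were higher, so the share of lower genes was close to that of all genes. At an unadjusted p under 0.05, 4 were lower (10.5% of all genes) and 6 higher (6.61% of all genes). DESeq2 gave 2 lower and 0 higher, where it called 6.98% of all its genes lower and 2.02% higher, and limma-voom gave 2 lower (3.35% of all genes) and 0 higher (0.482%). In these bulk libraries, fewer cells with a transcript and less transcript per cell cannot be told apart.

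The sizes of the differences were small. A log2 fold change within 0.5 of 0 was found for 52 of the 56 genes (92.9%), against 76.3% of all genes tested, and the exceptions were TMEM231, CCP110, GLI1 and BBS1. The comparison was not matched for level, so it does not show that these genes varied less than others of like level. The median log2 fold change was 0.11, beside 0.016 over all genes, and 40 of the 56 genes (71.4%) lay above 0, beside 51.8% of all genes. Both siFAM53C libraries were above every siCtrl library in 15 genes (26.8%, beside 16.7% of all genes) and below in 8 (14.3%, beside 18.8%). The summed level of the 56 genes was 1402, 1464 and 1520 CPM in siCtrl and 1496 and 1535 CPM in siFAM53C, so the conditions overlapped.

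**Figure D1:**
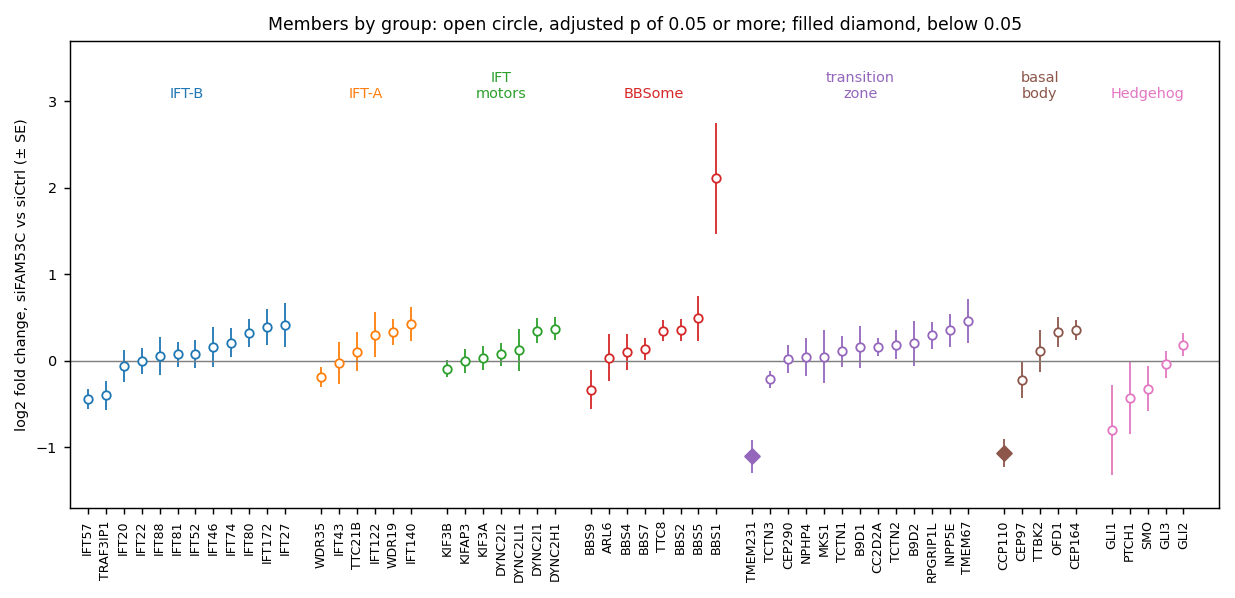
Log2 fold change, siFAM53C against siCtrl, of each of the 56 genes with its standard error (y axis), by group and in order of value within a group (x axis). TMEM231 and CCP110, the filled diamonds, lie near -1.1, BBS1 at 2.11 has the widest error bar, and all other genes but GLI1 lie within 0.5 of 0.

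TMEM231 and CCP110 were the members that passed the test, and both act at the base of the cilium. TMEM231 is a membrane protein of the transition zone, of the complex whose loss causes Meckel and Joubert syndromes, and CCP110 (CP110) caps the distal end of centrioles and must leave the older centriole before a cilium can grow. TMEM231 (ENSG00000205084) lies on the minus strand of hg38 at chr16:75536741-75556289, and another gene on the same strand covers 582 of its 7074 exon bases. It had 13.0, 16.1 and 14.5 CPM in siCtrl and 6.88 and 6.66 CPM in siFAM53C. CCP110 (ENSG00000103540) lies on the plus strand at chr16:19523811-19553408 and shares no exon bases with another gene. It had 49.2, 49.4 and 62.4 CPM in siCtrl and 22.9 and 28.3 CPM in siFAM53C. For each gene both knockdown libraries were well below every control. The log2 fold change was -1.10 for TMEM231 (SE 0.19, edgeR adjusted p = 0.0219) and -1.07 for CCP110 (SE 0.16, edgeR adjusted p = 0.0126). CEP97, the partner of CCP110 on the cap, had 37.4, 45.1 and 57.7 CPM in siCtrl and 34.1 and 46.2 in siFAM53C, and its conditions overlapped (log2 fold change -0.22, edgeR adjusted p = 0.674).

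The size of these changes held when libraries were left out, but the calls did not in every case. TMEM231 was called without siCtrl replicate 3 (-1.09) and not without siCtrl replicate 1 (-1.18), siCtrl replicate 2 (-1.02), siFAM53C replicate 1 (-1.13) or siFAM53C replicate 2 (-1.08). CCP110 was called without siCtrl replicate 3 (-0.94) and without siFAM53C replicate 2 (-1.23), and not without siCtrl replicate 1 (-1.13), siCtrl replicate 2 (-1.13) or siFAM53C replicate 1 (-0.93). Leaving out 1 library also lowered the number of all genes called lower, from 533 to between 157 and 209, except without siCtrl replicate 3 (886).

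Sequence features of these genes that were not used to choose them are shown next. The heptamer GACAAGA was searched in the longest 3′ UTR of each gene in GENCODE release 44, on the transcript strand only, because earlier results of these data had linked it to lower values. It was found in TMEM231, and not in CCP110. Each window below is 29 bases of hg38, 5′ to 3′ on the transcript strand, with the heptamer in capitals. They are the site in the member that fell and, for contrast, the sites in the BBSome gene TTC8 and the Hedgehog receptor PTCH1, which were not called.
TMEM231 (chr16:75538398-75538426, minus): tatggaaagatGACAAGAtacgtataaac
TTC8 (chr14:88878529-88878557, plus): cattcactacaGACAAGAaagcaaggccc
PTCH1 (chr9:95444735-95444763, minus): accttgttacaGACAAGAagtcagaggaa
Of the 56 genes, 7 hold the heptamer: TMEM231, MKS1, RPGRIP1L, ARL6, TTBK2, TTC8 and PTCH1. Their median log2 fold change was 0.049, with 1 of 7 lower, and that of the other 49 was 0.11, with 1 lower (CCP110). Over all genes tested with an annotated 3′ UTR, FAM53C left out, 211 of the 1399 that hold it were lower (15.1%) and 312 of the 10673 that do not (2.92%). Because the heptamer was picked from results of these data, this difference is not separate evidence. Genes with the heptamer also had longer 3′ UTRs, with a median of 3344 bases against 1386, and the part of this length in the difference was not tested. The longest 3′ UTR of FAM53C holds the heptamer as well.

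The X-box, the motif bound by RFX factors at many ciliary genes, was searched in RefSeq promoters of GRCh38.p14, from 250 bases before to 50 after the first listed start. Its letters here are GTNNCC, then 3 bases of any kind, then GNAAC, read on both strands. It was found in 626 of 27303 promoters (2.29%) and in 5 of the 49 cilium and Hedgehog genes with an entry (10.2%), which are ARL6, IFT57, TMEM231, B9D1 and B9D2. The 30-base windows of these 5 are given so that the matches can be read, 5′ to 3′ on the gene's strand and with the motif in capitals; the remaining promoters of the set did not hold these letters.
ARL6 (chr3:97764726-97764755, plus): aagctcctGTTGCCAAGGGAACggtgcctg
IFT57 (chr3:108222433-108222462, minus): ggagtctaGTTTCCCTGGTGACggattgtc
TMEM231 (chr16:75556271-75556300, minus): agccgtcgGTTGCCGTGGAGACcgaggcga
B9D1 (chr17:19378085-19378114, minus): ctgggactGTTACCTTGGCTACtggctccc
B9D2 (chr19:41364136-41364165, minus): agcctgctGTTGCCCCAGCAACaaccacgg
The motif of B9D2 reads on the gene's strand, that of ARL6 on both strands, and those of IFT57, TMEM231 and B9D1 on the opposite strand. The log2 fold changes of these 5 ran from -1.10 for TMEM231 and -0.44 for IFT57 through 0.04 for ARL6 and 0.16 for B9D1 to 0.20 for B9D2, so the motif stood with values in either direction. IFT22, WDR35, BBS9, TMEM67, TCTN2, GLI1 and GLI3 had no entry.

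The IFT trains were near their control level. In IFT-B, 8 of 12 genes were above 0, with a median log2 fold change of 0.074, and 0 passed the test (at an unadjusted p under 0.05, IFT57 and TRAF3IP1 were lower). IFT57, a peripheral IFT-B subunit, was the lowest of the group, with 40.2, 42.3 and 40.2 CPM in siCtrl and 31.7 and 28.4 CPM in siFAM53C. Its conditions did not overlap, and the difference was of -0.44 on the log2 scale (SE 0.12, edgeR adjusted p = 0.0963). IFT27, a small GTPase of IFT-B, had the highest value, 0.42, with 6.54, 5.49 and 8.80 CPM in siCtrl and 8.73 and 9.80 in siFAM53C, where the lower knockdown library was below siCtrl replicate 3. The value of IFT27 ran from 0.27 to 0.63 with 1 library left out. TRAF3IP1 (IFT54), the adaptor that links IFT-B to microtubules, had 24.7, 25.1 and 20.0 CPM in siCtrl and 16.6 and 18.7 in siFAM53C, below every control in both knockdown libraries (-0.40, edgeR adjusted p = 0.266). Of the other IFT-B genes, IFT20, IFT22, IFT52, IFT81 and IFT88 had values from -0.06 to 0.07, and the rest were higher, with 0.16 for IFT46, 0.21 for IFT74, 0.32 for IFT80 and 0.39 for IFT172. For IFT80 and IFT172 the knockdown libraries were above every control, and for the other 7 the conditions overlapped.

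IFT-A, the retrograde complex, had 4 of 6 genes above 0 and a median of 0.20, and 0 of its genes passed the test (also 0 at an unadjusted p under 0.05). IFT140, a core subunit, had 15.7, 11.7 and 15.7 CPM in siCtrl and 16.8 and 21.8 CPM in siFAM53C (0.42 on the log2 scale, edgeR adjusted p = 0.337). WDR35, also of IFT-A, had 42.9, 44.8 and 49.7 CPM in siCtrl and 39.2 and 41.3 CPM in siFAM53C, a log2 fold change of -0.19. With 1 library left out, IFT140 ran from 0.22 to 0.59 and WDR35 from -0.23 to -0.12. The conditions did not overlap in either gene, and the directions were opposite. WDR19 (IFT144), which was also above every control in both knockdown libraries, had a value of 0.34, and IFT122 of 0.30, TTC21B of 0.10 and IFT43 of -0.03, all of these last with overlap. IFT122 followed the libraries more than the siRNA, with 38.1 CPM in siCtrl replicate 3 and 40.5 in siFAM53C replicate 2 and between 21.6 and 29.2 CPM in the others. With a replicate block by titles, however, IFT122 was called higher (0.56, edgeR adjusted p = 0.0432). In that fit siCtrl replicate 3, the control with the highest IFT122, is alone in its block and does not inform the difference.

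Among the motors, the 4 dynein-2 genes were all above 0 (median 0.24) and the 3 kinesin-2 genes were centred on 0 (median 0.00096). DYNC2H1, the heavy chain that powers retrograde transport, had 46.1, 55.3 and 58.5 CPM in siCtrl and 73.6 and 64.2 CPM in siFAM53C. KIF3B, a kinesin-2 motor subunit, had 89.0, 90.7 and 90.8 CPM in siCtrl and 84.5 and 84.9 CPM in siFAM53C. The conditions did not overlap for either gene, but the differences were small, with log2 fold changes of 0.37 (edgeR adjusted p = 0.221) and -0.09 (edgeR adjusted p = 0.712). DYNC2I1, a dynein-2 intermediate chain, stood at 16.6, 16.7 and 15.7 CPM in siCtrl and at 21.5 and 20.1 CPM in siFAM53C, also without overlap (0.35, edgeR adjusted p = 0.264). DYNC2LI1 (0.12), KIF3A (0.03) and KIFAP3 (0.00096) overlapped between the conditions.

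The BBSome group had the highest median, 0.24, with 7 of 8 genes above 0. In 5 of its genes, BBS1, BBS2, BBS5, BBS7 and TTC8, both knockdown libraries were above every control (62.5%, beside 16.7% of all genes), and in 1, BBS9, they were below (beside 18.8%). No gene of the group passed the test (0 of 8, with BBS1, BBS2 and TTC8 higher at an unadjusted p under 0.05). BBS2 had 29.8, 27.4 and 32.1 CPM in siCtrl and 38.3 and 37.9 CPM in siFAM53C. TTC8 (BBS8) had 24.3, 24.2 and 22.9 CPM in siCtrl and 31.2 and 29.5 CPM in siFAM53C. The log2 fold changes of BBS2 and TTC8 were 0.36 and 0.35, and BBS5 (0.49), BBS7 (0.14), BBS4 (0.11) and ARL6 (0.04), the GTPase that brings the BBSome to membranes, were also above 0. BBS9, a scaffold subunit and the exception, had 7.05, 8.63 and 8.28 CPM in siCtrl and 6.69 and 5.98 in siFAM53C (-0.33 on the log2 scale). BBS1 was measured in few counts, 5, 9 and 4 in siCtrl and 27 and 37 in siFAM53C. In CPM these are 0.212, 0.471 and 0.210 against 1.02 and 1.57, without overlap, and the log2 fold change was 2.11 (SE 0.64, edgeR adjusted p = 0.143). Other genes cover 3311 of its 6131 exon bases on the same strand and 1530 on the opposite strand, so its value is uncertain.

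In the transition zone 11 of 13 genes were above 0, with a median of 0.16. TMEM231 was called and lower, and the only other gene below 0 was TCTN3, a tectonic protein of the same gate, with 104, 113 and 111 CPM in siCtrl and 96.8 and 91.8 CPM in siFAM53C. TCTN3 had a log2 fold change of -0.22 (edgeR adjusted p = 0.328), while those of TCTN1 and TCTN2 were 0.11 and 0.18. TMEM67 (meckelin), a membrane receptor of the gate, was the highest of the group at 0.46. Its levels were 7.85, 8.22 and 6.18 CPM in siCtrl and 8.05 and 12.4 CPM in siFAM53C, so that siFAM53C replicate 2 alone lay above the controls. Without that library the log2 fold change of TMEM67 was 0.12. The other members of the group were between 0.019 (CEP290) and 0.35 (INPP5E, a lipid phosphatase of the ciliary membrane). CC2D2A, a scaffold of the gate, was the one gene of the group above every control in both knockdown libraries, with 43.6, 42.0 and 41.6 CPM in siCtrl and 49.5 and 45.1 CPM in siFAM53C. RPGRIP1L (0.29), B9D1 (0.16), B9D2 (0.20), MKS1 (0.05) and NPHP4 (0.04) overlapped.

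At the basal body, CCP110 fell, and CEP97 was not called, as given above. CEP164, the distal appendage protein that recruits the kinase TTBK2, had 58.6, 54.6 and 63.4 CPM in siCtrl and 70.8 and 79.5 CPM in siFAM53C. Its conditions did not overlap, and its log2 fold change was 0.35 (SE 0.12, edgeR adjusted p = 0.175). With each library left out in turn it passed in 1 of 5 fits, without siCtrl replicate 3 (0.42, edgeR adjusted p = 0.0494). It was 0.35 without siCtrl replicate 1, 0.30 without siCtrl replicate 2, 0.43 without siFAM53C replicate 1 and 0.26 without siFAM53C replicate 2 (edgeR adjusted p from 0.357 to 0.653). TTBK2, which promotes removal of the CCP110 cap, had 12, 13.3 and 19.2 CPM in siCtrl and 13.8 and 18.2 CPM in siFAM53C, with overlap, and OFD1 of the centriolar satellites had 14.4, 17.7 and 19.5 CPM in siCtrl and 21.2 and 22 CPM in siFAM53C (0.33, edgeR adjusted p = 0.38), without overlap.

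**Figure D2:**
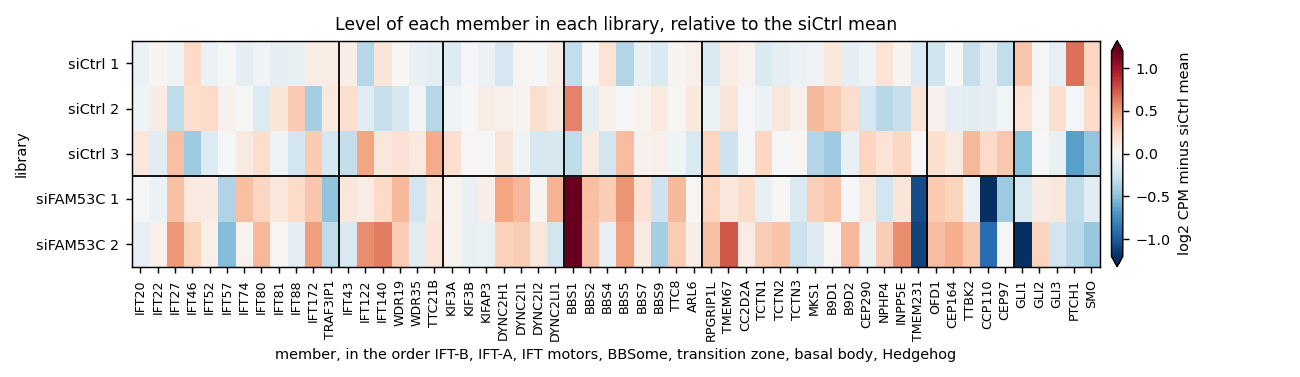
Level of each of the 56 genes (x axis, by group) in each library (y axis) as log2 CPM minus the mean of siCtrl; red is higher and blue lower, and values past 1.2 take the end colours. The 2 siFAM53C rows are dark blue at TMEM231 and CCP110 and dark red at BBS1, and siFAM53C replicate 2 is dark blue at GLI1.

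None of the Hedgehog genes passed the test (edgeR, 0 of 5 lower or higher, and 0 at an unadjusted p under 0.05), and their median was -0.32 with 4 of 5 below 0. PTCH1, the receptor and a target of the pathway, had 5.48, 3.40 and 2.15 CPM in siCtrl and 2.76 and 2.72 CPM in siFAM53C. SMO, the transducer that PTCH1 holds in check, had 16.3, 16 and 9.80 CPM in siCtrl and 12.5 and 9.97 CPM in siFAM53C. In both genes siCtrl replicates 1 and 2 were above the knockdown libraries and siCtrl replicate 3 was below them. The log2 fold changes were -0.43 for PTCH1 and -0.32 for SMO. With 1 library left out they ran from -0.69 to -0.018 and from -0.52 to -0.17, so the median of the group depended on single libraries. GLI1, the transcription factor whose own level follows pathway activity, had 3.61, 3.19 and 1.99 CPM in siCtrl and 2.49 and 0.849 CPM in siFAM53C. The conditions overlapped, and the log2 fold change of -0.80 (SE 0.52, edgeR adjusted p = 0.50) rested on siFAM53C replicate 2, since it was -0.24 without that library and -1.79 without siFAM53C replicate 1.

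GLI2, the main activator, was the Hedgehog gene above 0, with 22.9, 23.5 and 23.3 CPM in siCtrl and 24.8 and 28.1 CPM in siFAM53C. Its log2 fold change was 0.19 (SE 0.13, edgeR adjusted p = 0.547), without overlap. It ran from 0.093 to 0.27 with 1 library left out. GLI3, the main repressor, had 35.7, 43.6 and 35.9 CPM in siCtrl and 41.9 and 32.6 in siFAM53C, with a log2 fold change of -0.04. That of GLI3 was above 0 when libraries were scaled by their totals alone (0.030), so its sign is not settled.

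**Figure D3:**
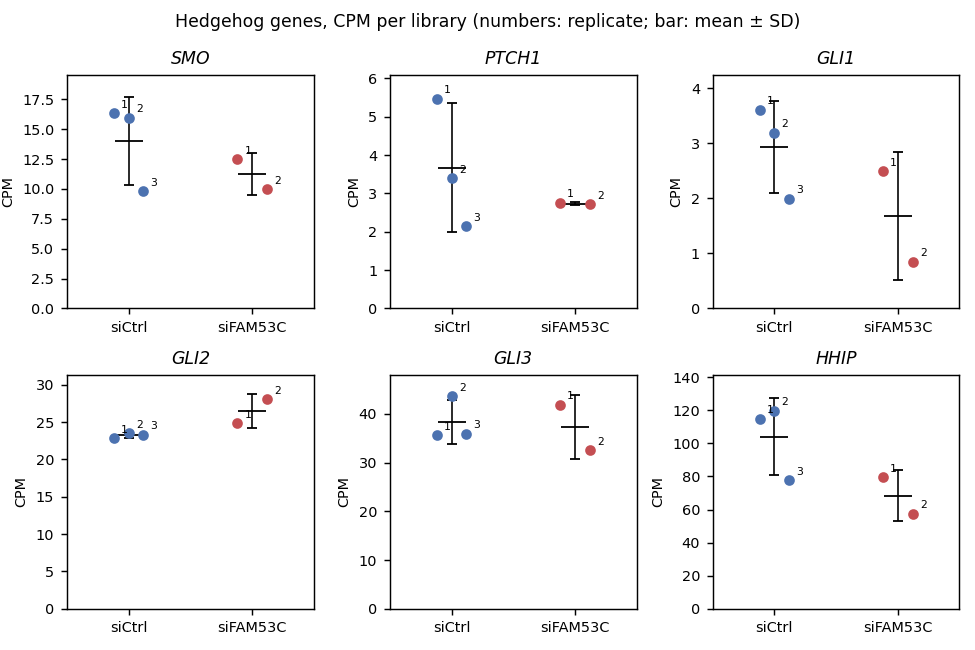
CPM (y axis, from 0) in each siCtrl (blue) and siFAM53C (red) library (x axis) for the 5 Hedgehog genes and HHIP; numbers are replicates, and the bar is the mean with its SD. In SMO, PTCH1, GLI1 and HHIP siCtrl replicate 3 is the lowest control, and siFAM53C replicate 2 is the lower knockdown library in all but GLI2.

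The libraries also differed within each condition. On the first axis of a principal component analysis of log2 CPM over all genes (39.8% of the variance), the siCtrl libraries had scores of -31.5, -47.4 and 33.7 and the siFAM53C libraries of 0.26 and 44.9. The sides used here were set at the widest gap between neighbouring scores, which put siCtrl replicate 3 with siFAM53C replicate 2. The score of siFAM53C replicate 1 was about midway between siCtrl replicate 3 and siCtrl replicate 1, so its place with siCtrl replicates 1 and 2 is uncertain, and so are the values below that use the sides. On each side siFAM53C also scored above siCtrl, so the axis was not free of the siRNA. On the side of siCtrl replicate 3, none of the 56 genes was higher by over 0.5 on the log2 scale in both conditions (8.18% of all genes), and 1 was lower (3.94% of all genes), GLI1. By sign alone, 19 of the 56 were higher on that side in both conditions (33.9%, beside 35% of all genes), 17 were lower in both (30.4%, beside 34% of all genes) and 20 went opposite ways (35.7%, beside 31% of all genes). All 5 basal body genes were among those higher in both, with medians of 0.34 in siCtrl and 0.30 in siFAM53C, among them TTBK2 (0.60 and 0.39), CEP97 (0.49 and 0.44) and CCP110 (0.34 and 0.30). IFT122 was higher there by 0.71 and 0.47. Those lower in both included MKS1 (-0.53 and -0.44), B9D1 (-0.65 and -0.31), BBS4 (-0.33 and -0.38) and IFT88 (-0.34 and -0.34), while TMEM67 (-0.37 and 0.62) and BBS1 (-0.46 and 0.58) went opposite ways. Within the sides, siFAM53C replicate 1 against siCtrl replicates 1 and 2 and siFAM53C replicate 2 against siCtrl replicate 3, TMEM231 differed by -1.06 and -1.11 and CCP110 by -1.11 and -1.14 on the log2 scale. For the Hedgehog genes the sides differed, with -0.63 and 0.33 for PTCH1, -0.37 and 0.03 for SMO and -0.43 and -1.15 for GLI1. Of the 56 genes, 28 were above 0 within both sides, where 36.1% of all genes tested were, and 10 (17.9%) were below 0 within both, where 33.2% of all genes were.

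With a term for the side in the fit, 3 genes were lower and 4 higher, where this fit called 10.7% of all genes lower and 6.76% higher. Those lower were TMEM231, CCP110 and IFT57 (-0.43, adjusted p = 0.0112), and those higher were DYNC2H1 (0.37, adjusted p = 0.0324), CEP164 (0.32, adjusted p = 0.0189), BBS2 (0.34, adjusted p = 0.0471) and TTC8 (0.36, adjusted p = 0.0483), each by edgeR. Without the term the values were nearly the same, with -0.44 for IFT57, 0.37 for DYNC2H1, 0.35 for CEP164, 0.36 for BBS2 and 0.35 for TTC8. The share of higher genes, 4 of 56, was close to that of all genes, and the share of lower genes was below it.

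The control level of the genes, given per kilobase (kb) of exon so that genes can be compared, covered a wide range. DYNC2I2, an intermediate chain of dynein-2, was the highest at 42.9 ± 5.97 CPM per kb (SD, n = 3), followed by KIF3B (14.7 ± 0.17), TCTN3 (11.6 ± 0.49) and IFT57 (11.3 ± 0.33). BBS1 was the lowest at 0.049 ± 0.024, then PTCH1 at 0.21 ± 0.097, MKS1 at 0.48 ± 0.13 and TMEM67 at 0.63 ± 0.092. Between them 43 of the 56 genes lay from 1 to 10 CPM per kb. In this order the siCtrl libraries of neighbouring genes did not overlap in 7 of 55 pairs, among them DYNC2I2 and KIF3B, KIF3B and TCTN3, and PTCH1 and BBS1, so most neighbours cannot be ranked by these libraries. The median of the 56 genes was 2.64 CPM per kb, with TMEM231 (2.06 ± 0.22) below it and CCP110 (4.75 ± 0.67) above it. DYNC2I2 itself hardly differed after knockdown, with 112, 132 and 99.9 CPM in siCtrl and 116 and 125 CPM in siFAM53C.

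**Figure D4:**
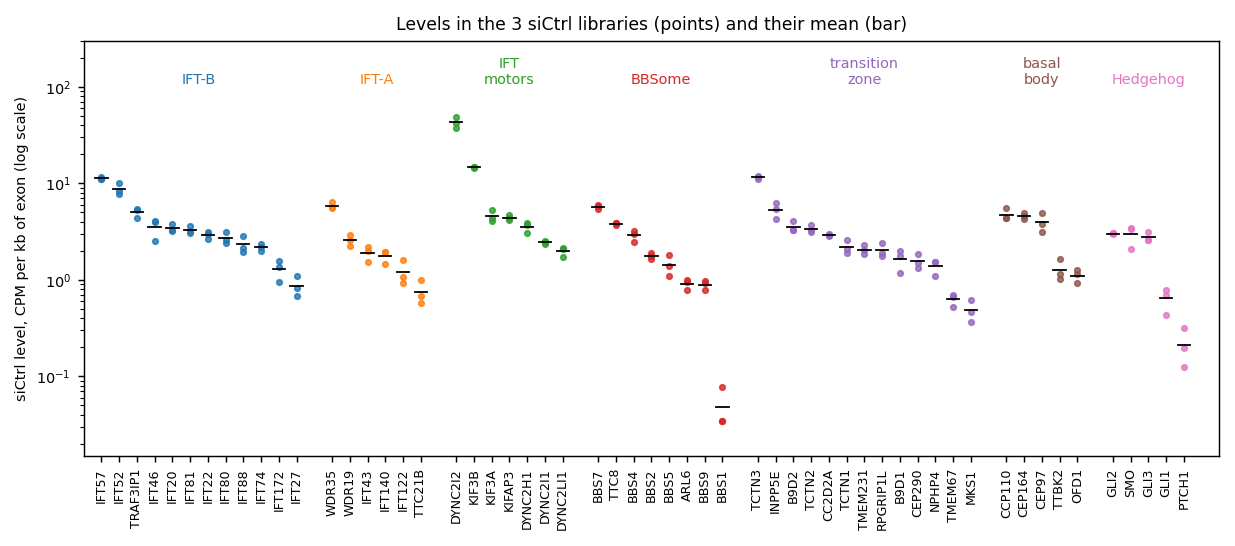
Level of the 56 genes in the 3 siCtrl libraries (points) and their mean (bar) in CPM per kb of exon on a log scale (y axis), by group and in falling order within each (x axis). Most genes lie from 1 to 10 CPM per kb, with DYNC2I2 at the top and BBS1 and PTCH1 at the bottom.

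A wider list of 111 cilium and Hedgehog genes outside the 56 was read for comparison, of which 98 had enough counts. The median of the log2 fold changes was -0.019, 47 were above 0, and by edgeR 7 were lower (7.14%, beside 3.47% of all genes) and 1 was higher (beside 0.489% of all genes). The lower ones were CEP19, CEP135, RFX7, SPOP, PRKACB, GSK3B and BTRC, and the higher one was BBS12. Of the 8 lists that make it up, the one on Hedgehog reception and signal control held 4 of those lower among 21 tested (19%, beside 3.47% of all genes), and the others held at most 1 each. The list was made with earlier results of these data known, and its share was not tested.

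These 4 genes act on the GLI proteins. PRKACB, a catalytic subunit of protein kinase A, which marks GLI2 and GLI3 for processing, had 54.8, 57.1 and 48.8 CPM in siCtrl and 26.3 and 24.1 CPM in siFAM53C (log2 fold change -1.09, SE 0.13, edgeR adjusted p = 0.00363). GSK3B, a kinase that acts after it, had 117, 120 and 123 CPM in siCtrl and 83.3 and 88.6 CPM in siFAM53C (-0.48, edgeR adjusted p = 0.0403). BTRC, the ubiquitin ligase subunit that binds the phosphorylated proteins, had 39.8, 36.0 and 39.7 CPM in siCtrl and 26 and 22.5 CPM in siFAM53C (-0.67, edgeR adjusted p = 0.0343). In all of them every knockdown library was below every control. SPOP, the cullin adaptor that targets full-length GLI proteins, had 38.1, 42.7 and 39.8 CPM in siCtrl and 28.0 and 21.4 in siFAM53C (-0.70, edgeR adjusted p = 0.0479), also without overlap. Other regulators of this list were not called, among them PRKACA, another catalytic subunit of protein kinase A (log2 fold change 0.11), SUFU, which holds GLI proteins in the cytoplasm (0.35), and GPR161, a ciliary receptor that keeps protein kinase A active (-0.41). With a block by library names SUFU was called higher (0.41, edgeR adjusted p = 0.0251) and GPR161 lower (-0.51, edgeR adjusted p = 0.00507), as they were with the term for the side (0.37 and -0.45, edgeR adjusted p = 0.018 and 0.00716).

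The other 4 genes of the wider list that passed the test came from 4 different lists, with 1 called gene in each. CEP19, which brings the GTPase RABL2 to the older centriole so that IFT-B can enter, had 2.55, 2.93 and 3.25 CPM in siCtrl and 0.567 and 0.467 CPM in siFAM53C, the largest difference among the 56 genes and the wider list (-2.48, SE 0.41, edgeR adjusted p = 0.0172). CEP135, a scaffold of centriole assembly, had 28.6, 31.0 and 31.6 CPM in siCtrl and 12.7 and 18.4 CPM in siFAM53C (-0.97, edgeR adjusted p = 0.0312). RFX7, a member of the RFX family of transcription factors, had 49.4, 53.5 and 59.6 CPM in siCtrl and 25.2 and 27.3 CPM in siFAM53C (-1.05, edgeR adjusted p = 0.00497). All of these were below every control in both knockdown libraries, whereas RFX1, RFX2, RFX3 and RFX5 were not called. BBS12, a chaperonin-like protein that helps to build the BBSome, rose from 3.91, 4.34 and 3.46 CPM in siCtrl to 10.1 and 8.19 CPM in siFAM53C (1.22, SE 0.24, edgeR adjusted p = 0.0337). BBS10, of the same chaperonin-like family, had a value of 0.31 and MKKS of -0.11, neither called.

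These calls depended on the scaling and on single libraries. With library totals in place of TMM, 3 of the 4 GLI regulators were not called, SPOP (-0.63, edgeR adjusted p = 0.0736), GSK3B (-0.41, edgeR adjusted p = 0.0735) and BTRC (-0.59, edgeR adjusted p = 0.0596). SPOP was also not called with the stricter filter (edgeR adjusted p = 0.050015) or without the robust step (edgeR adjusted p = 0.0552). Without siCtrl replicate 3 all 8 remained. Without siCtrl replicate 1 only RFX7 (-1.11) and PRKACB (-1.07) did, and without siCtrl replicate 2 again RFX7 (-1.05) and PRKACB (-1.04). Without siFAM53C replicate 1 PRKACB alone was called (-1.16), and without siFAM53C replicate 2 CEP135 (-1.26), RFX7 (-1.11) and PRKACB (-1.03). In these fits the others kept their sign, with BBS12 from 1.06 to 1.36, CEP19 from -2.63 to -2.35, SPOP from -0.91 to -0.53, BTRC from -0.78 to -0.57 and GSK3B from -0.53 to -0.44.

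**Figure D5:**
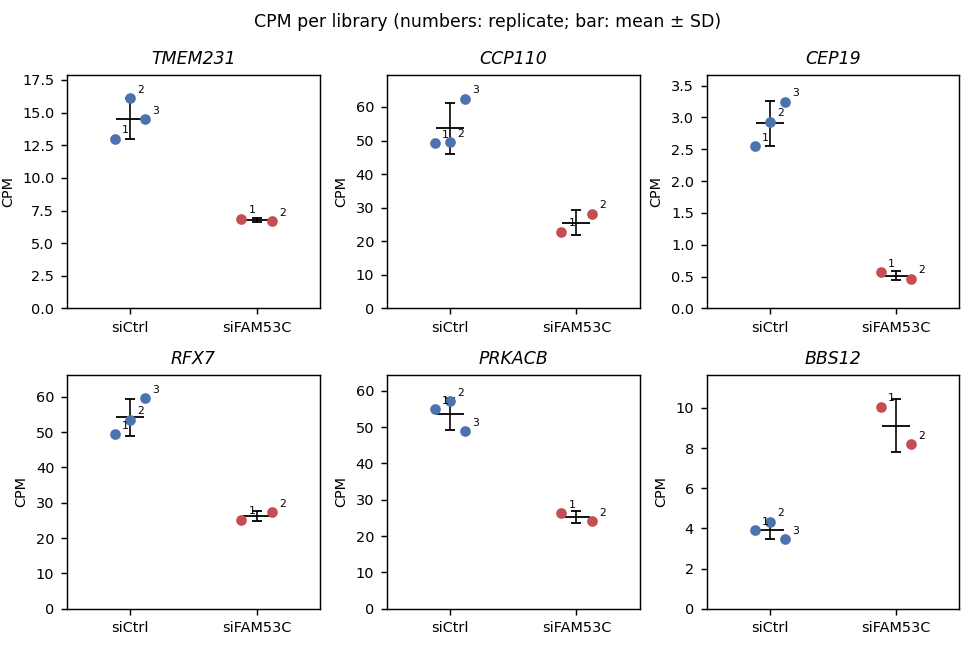
CPM (y axis, from 0) in each siCtrl (blue) and siFAM53C (red) library (x axis) for TMEM231 and CCP110 and for 4 called genes of the wider list; numbers are replicates, and the bar is the mean with its SD. The conditions do not overlap in any of the 6, and BBS12 is the one that is higher in siFAM53C.

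The heptamer GACAAGA was also looked up in the wider list. It was found in the longest 3′ UTR of 13 of the 98 genes tested, 5 of which were lower (CEP19, RFX7, PRKACB, BTRC and SPOP), and 2 of the other 85 were lower (CEP135 and GSK3B). These are 38.5% and 2.35%, beside 15.1% and 2.92% of all genes tested with and without it, FAM53C again left out. Both the heptamer and this list were chosen with earlier results of these data known, so these shares are a description and not separate evidence. In this list too, genes with the heptamer had longer 3′ UTRs, with a median of 3268 bases against 1513, and the part of this length was not tested. PRKACB and RFX7 hold 1 copy each, BTRC 2, and CEP19 3, of which the last overlap in sequence. GPR161 also holds 3 copies (-0.41, not called without a block or a term for the side). Windows of 29 bases are shown for the genes with the lowest values, with the heptamer in capitals and 1 site for CEP19.
CEP19 (chr3:196706745-196706773, minus): agtagtaaaggGACAAGAaacaatttttt
PRKACB (chr1:84237933-84237961, plus): tcacagtcgatGACAAGAttgtcttttta
RFX7 (chr15:56092907-56092935, minus): ggtgaactgtaGACAAGAaagtcttcctt
The X-box letters were found in 6 of 91 promoters of this list (6.59%, beside 2.29% of all promoters), among them that of CEP135.

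The remaining lists gave no call in the test without further terms, and their highest and lowest genes were these. Of the further transition zone genes, TMEM237 had 79.6, 86.1 and 101 CPM in siCtrl and 56.9 and 65.3 in siFAM53C (-0.54, edgeR adjusted p = 0.0787), and NEK8, a kinase of the inversin compartment, had a value of 0.78 at 3.14, 1.26 and 4.24 against 4.50 and 5.43 CPM. Of the list on cilium disassembly and restraint, AURKA, the kinase that starts disassembly, had 126, 126 and 161 CPM in siCtrl and 80.0 and 116 in siFAM53C (-0.49, edgeR adjusted p = 0.24). The highest value in that list, 0.57 (edgeR adjusted p = 0.121), was that of TRAPPC14, which helps vesicles to dock at the older centriole, a step of assembly and not of what the list is named for. Neither condition overlapped the other in these 4 genes. With 1 library left out, AURKA ran from -0.78 to -0.25 and NEK8 from 0.43 to 1.17. Calls of 3 of the 4 genes depended on the fit. With the term for the side and with a block by library names, TMEM237 (-0.58 and -0.55, edgeR adjusted p = 0.000265 and 0.00138) and AURKA (-0.57 and -0.56, edgeR adjusted p = 0.000152 and 0.000654) were called lower and TRAPPC14 higher (0.60 and 0.52, edgeR adjusted p = 0.00614 and 0.0218). All 3 were also called with no filter, and TMEM237 by DESeq2 (adjusted p = 0.0168), with a block by titles (edgeR adjusted p = 0.0402) and without siCtrl replicate 3 (edgeR adjusted p = 0.046). The block by titles and the last of these fits both set aside siCtrl replicate 3. NEDD9, the scaffold that activates AURKA, separated the libraries by side and not by siRNA, with 3.48, 2.46 and 18.5 CPM in siCtrl and 1.97 and 14.2 CPM in siFAM53C.

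Hedgehog ligands were at or near 0. SHH had no count in any library, and IHH and DHH were at or below 0.127 CPM. HHAT, the enzyme that attaches palmitate to the ligands, had 8.28, 9.89 and 9.43 CPM in siCtrl and 10.9 and 12.8 in siFAM53C (0.37), and SCUBE3, a factor for ligand release, was below 1 CPM in every library (-0.05). HHIP, a decoy receptor and target of the pathway, was abundant by comparison, with 115, 120 and 77.6 CPM in siCtrl and 79.4 and 57.4 CPM in siFAM53C. Its conditions overlapped by siFAM53C replicate 1 and siCtrl replicate 3, and the log2 fold change was -0.61 (SE 0.22, edgeR adjusted p = 0.228). Within the sides it was -0.56 and -0.43, and with the term for the side HHIP was called (-0.51, edgeR adjusted p = 0.000607), as it was with either block (-0.48 by library names and -0.80 by titles), with no filter (-0.61) and without siCtrl replicate 3 (-0.77). The block by titles and the fit without siCtrl replicate 3 both set aside the lowest control for HHIP, so they are not separate results. The fit with the term for the side called 18 of the 98 genes lower and 12 higher, where it called 10.7% of all genes lower and 6.76% higher.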

How the data were processed

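The authors deposited raw counts per gene, made with featureCounts from HISAT2 alignments to hg38 after adapter trimming by cutadapt 2.10. The labels also list mm10, but the identifiers are human. Strandedness is stated for the alignment only and the annotation release is not given in the sources used here, so genes that share exon bases with another gene are uncertain. The methods state duplicates, and all 3 siCtrl libraries were used. Pairs of libraries of a condition differed by more than sampling noise (chi-square per gene from 7.16 to 31.1).

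Of the identifiers, 56105 had a symbol in GENCODE release 44. In R 4.3.3 with edgeR 4.0.16, counts were filtered by filterByExpr (minimum count 10, minimum total 15), scaled by TMM factors and tested by robust quasi-likelihood fits over all genes, calling genes at a Benjamini-Hochberg adjusted p under 0.05. Log2 CPM used a prior count of 2. Alternatives were DESeq2 1.42.0, limma 3.58.1 (voom), library totals, median-of-ratios factors, other filters, replicate blocks, a term for the library split and each library left out; a fit without the robust step was added after seeing the data. The scripts were tested on simulated data. Genes named with values were those past the threshold, the highest and lowest of each group, all Hedgehog genes and the highest and lowest levels; others, such as CEP97, BBS2, NEDD9 and HHIP, were chosen after their values were seen. The members and lists were chosen with earlier results of these data known.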

Additional observations from a re-analysis of the deposited data

How the results depend on the processing

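The members called lower, TMEM231 and CCP110, were called with DESeq2, limma-voom, median-of-ratios factors, library totals, no filter, a stricter filter (mean CPM of 1) and no robust step. The limits are the 2 knockdown libraries, the library split and low counts in BBS1, GLI1 and PTCH1. The number of the 56 genes lower was 2, and 4 at an unadjusted p under 0.05; the number higher was 0, and 6 at an unadjusted p, 4 with the term for the library split. With 1 library left out they ranged from 0 to 2 and from 0 to 1. The median of the 56 genes was 0.18 with library totals, which moved that of all genes from 0.016 to 0.087, and from 0.072 to 0.17 with 1 library left out. Of the 56, 44 were above 0 with library totals, 33 with the block by titles, 34 without siFAM53C replicate 1 and 35 without siCtrl replicate 3, against 40.

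Of the wider list, 7 were lower and 1 higher. These numbers were 9 and 3 with DESeq2, 4 and 2 with library totals, 11 and 5 with no filter, 6 and 2 with the stricter filter, 18 and 12 with the split term, and 17 and 11 at an unadjusted p; with 1 library left out they ran from 1 to 11 and from 0 to 5. Over all genes tested, 533 were lower and 75 higher. There were 890 and 257 with DESeq2, 415 and 121 with library totals, 961 and 375 with no filter, 1636 and 1037 with the split term, and 1607 and 1014 at an unadjusted p; with 1 library left out they ran from 157 to 886 and from 6 to 414. The cause was not tested.

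The titles and the library names number the libraries differently. By titles siCtrl replicate 3 has no knockdown library in its block, and by library names siCtrl replicate 2 has none. Each block fit therefore in effect sets that control aside, much as the fit that leaves it out does. With a replicate block by library names, 3 of the 56 genes were lower (TMEM231, CCP110 and IFT57) and 1 higher (BBS1), with a median of 0.16, 15 and 9 of the wider list, and 1350 and 642 of all genes. With a replicate block by titles, 1 of the 56 was higher (IFT122), 10 and 6 of the wider list, and 856 and 355 of all genes. Deviations from the condition means correlated by 0.169 for the libraries numbered 1 in both, -0.285 for those titled 2, and 0.371 for those named 3. The pairs by library names were thus both positive, and those by titles were not. With 2 knockdown libraries the deviations of one are those of the other with the sign turned, so these values are not independent, and neither numbering is shown to pair the libraries.

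Signs turned for genes near 0. GLI3 was above 0 with library totals (0.030), with the block by library names (0.050), without siCtrl replicate 2 (0.059) and without siFAM53C replicate 2 (0.12), and from -0.24 to 0.12 over the fits that leave out 1 library. SCUBE3 was above 0 with library totals (0.016) and without siFAM53C replicate 1 (0.20), and from -0.37 to 0.20 over those fits. DYNC2I2 was below 0 with the block by titles (-0.011) and without siCtrl replicate 3 (-0.0066), and from -0.0066 to 0.19 over those fits.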
